A study of Mus musculus with 9 samples.

Results

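Nfe2l2 and Aldh2 were described in EHE17 cells, a mouse endothelial tumour cell line, after exposure to the kinase inhibitor dinaciclib. They are 2 of the 251 genes that the authors' deposited table for dinaciclib lists, and 2 of the 720 genes listed for either compound of the study. They were taken by name, because one, a stress regulator, was lower and the other, a mitochondrial enzyme, was higher with dinaciclib. The difference between dinaciclib and vehicle therefore chose them, and it is given below as a description without a test. RNA sequencing was done on 3 libraries from cells given 300 nM dinaciclib for 16 h and on 3 libraries from cells given the vehicle, DMSO. A further group of 3 libraries received 10 µM MGH-CP1, an inhibitor of TEAD palmitoylation, for 16 h. All groups are the same tumour line with the genotype TC+/+ Cdkn2a -/-, so the tumour suppressor gene Cdkn2a is deleted in the controls as well, and the replicates are labelled as biological triplicates of that single line.

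Nfe2l2 encodes NRF2, a transcription factor of the basic leucine zipper (bZIP) class that pairs with small MAF proteins on antioxidant response elements. The adaptor KEAP1 and the ubiquitin ligase CUL3 keep NRF2 protein short-lived until electrophiles or oxidants block KEAP1. NRF2 then drives genes of glutathione synthesis, thioredoxin, quinone reduction and NADPH supply. Aldh2 encodes a mitochondrial matrix dehydrogenase that oxidises acetaldehyde and lipid-derived aldehydes such as 4-hydroxynonenal to their acids. The Fanconi anaemia proteins repair DNA crosslinks, among them those made by aldehydes that escape such enzymes. Dinaciclib blocks several cyclin-dependent kinases, including the transcriptional kinase CDK9. The measurements are transcript levels and say nothing of NRF2 protein or of enzyme activity.

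Nfe2l2 (ENSMUSG00000015839) lies on the minus strand of chromosome 2, 75675513 to 75704641 (GRCm38). Its main coding transcript has 5 exons and 2475 bases. In the authors' deposited table it is annotated with the tumour types NSCLC and HNSCC, and its factor family is given as TF_bZIP. The 250 bases before its RefSeq start site (chr2:75704664-75704913, minus strand, GRCm38.p6, from RefSeq) are shown because they hold a match to the element that NRF2 itself binds. The capitals mark, from the 5′ end, that match (TGACTCCGC, 240 bases before the start site) and 3 GC boxes.

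Nfe2l2 promoter: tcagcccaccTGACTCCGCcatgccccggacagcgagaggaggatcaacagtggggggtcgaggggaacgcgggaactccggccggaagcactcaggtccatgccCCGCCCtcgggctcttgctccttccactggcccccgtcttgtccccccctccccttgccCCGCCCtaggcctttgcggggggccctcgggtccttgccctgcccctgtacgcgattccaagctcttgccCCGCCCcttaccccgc

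The motifs were searched on both strands, the antioxidant response element as TGACNNNGC and the GC box as GGGCGG, and no match of one overlapped a match of the other. Of 32851 RefSeq promoters of the same length, 10.2% held the antioxidant response element letters and 32.7% a GC box. The Nfe2l2 stretch was 70.4% G and C, against a median of 52.4%, and 8.79% of promoters were at or above it. It held no CCAAT, no TATAAA and no TGANTCA. These matches describe letters in a window, not binding.

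Aldh2 (ENSMUSG00000029455) lies on the minus strand of chromosome 5, 121566027 to 121593824, and its main coding transcript has 13 exons and 3867 bases. The authors' deposited table annotates it with the tumour type leiomyoma. The pentamer ATTTA, the core of AU-rich elements that many unstable messages carry, was searched in the 3′ untranslated regions of both genes, on the transcript strand. The Nfe2l2 region of 448 bases held 1, shown in capitals with its neighbours (chr2:75675691-75675720, minus strand, GRCm38), starting at base 253 after the stop codon.

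Nfe2l2 ATTTA site: actacagaacttATTTAtactgttctcact

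The Aldh2 region of 1964 bases held 0. Among 250 genes of the table with a coding transcript, the median was 2 such pentamers. The medians were 1 for the 64 that were higher with dinaciclib and 2 for the 186 that were lower. Each member was below the median of its own direction in number, although per kilobase the short Nfe2l2 region held 2.23, above the median of 1.62 for the lower genes.

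Vehicle libraries held 31852117 to 40020833 counts and dinaciclib libraries 2541162 to 3316779, a mean ratio of 12.2. The dinaciclib table lists only genes with a tumour-type entry, and each had passed the authors' own thresholds for change. Levels are given as normalised counts, which are counts divided by the authors' size factor of the library. For comparisons between genes they are given as FPKM, which divides counts by gene length and by the total count of the library. Both are relative to the rest of the library, and fewer cells and less RNA per cell cannot be told apart in such data. Of 22 endothelial markers 3 were in the dinaciclib table, and all 3 fell, where 75% of the genes tested in that table were lower. The VEGF receptor gene Kdr went from 90.3 ± 2.90 to 21.1 ± 2.69 FPKM (SD, n = 3), a log2 change of −2.24, and Gata2 from 9.11 ± 0.498 to 1.04 ± 0.272, a log2 change of −3.24. Fli1 went from 32.0 ± 0.609 to 4.65 ± 3.34, a log2 change of −2.88, or −3.70 without dinaciclib replicate 2. With DESeq2 size factors over the listed genes the log2 changes of the markers Kdr, Gata2 and Fli1 were −0.55, −1.58 and −1.29. Their part in the members' values was not tested. None of 14 leukocyte, 13 fibroblast or mural and 8 epithelial markers was listed there, and the levels of unlisted markers were not analysed here.

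Nfe2l2 was much lower with dinaciclib. The vehicle libraries held 5588, 5684 and 6690 reads of it, and the dinaciclib libraries 32, 62 and 36. As normalised counts these were 1815, 1716 and 1724 in vehicle and 118, 177 and 118 with dinaciclib. The groups did not overlap, and the lowest vehicle library stood 9.70-fold above the highest dinaciclib library. Nfe2l2 was chosen for this difference from genes already picked for change, so the separation is a description only. The means were 1752 ± 55.1 in vehicle and 138 ± 33.9 with dinaciclib (SD, n = 3), a 12.7-fold difference. The log2 change was −3.65 (SE 0.175) in the edgeR fit of the whole table, and the authors' deposited table gives −3.65 as well.

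The few reads limited the precision of the Nfe2l2 level with dinaciclib. In FPKM the 3 libraries stood at 3.32 (exact Poisson 95% interval 2.27 to 4.68), 4.92 (3.78 to 6.31) and 3.31 (2.32 to 4.59). These intervals cover counting error only, and those of the 3 libraries overlap one another. In vehicle the FPKM values were 46.2, 43.8 and 44.0, with a coefficient of variation of 2.95% against 24.1% with dinaciclib.

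Aldh2 was much higher with dinaciclib. Its reads numbered 7617, 7795 and 9134 in vehicle and 14462, 14722 and 15929 with dinaciclib. The raw number of reads was thus larger in the shallower libraries, but read numbers too are relative to the rest of the library. The 251 listed genes together held 2.53% to 2.57% of all counts in the vehicle libraries and 9.61% to 12.3% with dinaciclib. As normalised counts it stood at 2474, 2353 and 2354 in vehicle and at 53486, 42006 and 52179 with dinaciclib. The groups did not overlap, and the lowest dinaciclib library stood 16.98-fold above the highest vehicle library. Aldh2 too was chosen for its difference from genes already picked for change, so its separation is a description only. The means were 2394 ± 69.6 in vehicle and 49224 ± 6284 with dinaciclib (SD, n = 3), a 20.6-fold difference. The log2 change was 4.36 (SE 0.128). Aldh2 reads were 0.0232% ± 0.000629 of all counts in vehicle and 0.523% ± 0.0690 with dinaciclib (SD, n = 3).

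**Figure D1:**
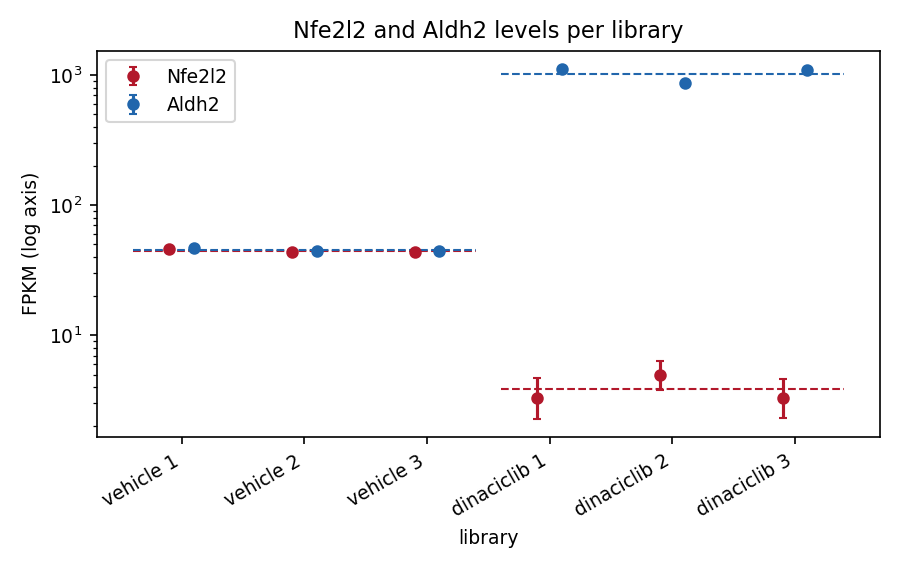
FPKM (log axis) of Nfe2l2 and Aldh2 in each vehicle and dinaciclib library, with exact Poisson 95% intervals as error bars and dashed lines at the group means of 3 libraries. Both genes lie near 45 FPKM in vehicle, whereas with dinaciclib Nfe2l2 lies between 3.31 and 4.92 and Aldh2 between 866 and 1110.

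Per length, the 2 genes had nearly the same level in vehicle. The ratio of Aldh2 to Nfe2l2 FPKM within a library was 1.01 (95% interval 0.975 to 1.05, from the exact binomial interval of the read counts), 1.02 (0.981 to 1.05) and 1.01 (0.980 to 1.04) in vehicle replicates 1, 2 and 3. With dinaciclib it was 335 (237 to 489), 176 (137 to 229) and 328 (237 to 468). The vehicle ratios were within counting error of equality, and every dinaciclib ratio lay above 100. A ratio of genes in the same library does not depend on how libraries are scaled. On the log2 scale the ratio of counts changed by 8.05, from 0.45 ± 0.00453 to 8.50 ± 0.527 (SD, n = 3), which is a 265-fold shift between the geometric means. The vehicle SD was smaller than the counting error shown by the intervals above, so it understates the uncertainty of the ratio.

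The closeness in vehicle rests on the gene lengths that the authors used, 3796 bases for Nfe2l2 and 5126 for Aldh2, which equal the union of all annotated exons. With the lengths of the main coding transcripts the vehicle ratio was 0.875 ± 0.00275 and the dinaciclib ratio 241 ± 77.6 (SD, n = 3). Here too the vehicle SD was smaller than the counting error. The shift between the groups is the same under either set of lengths.

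**Figure D2:**
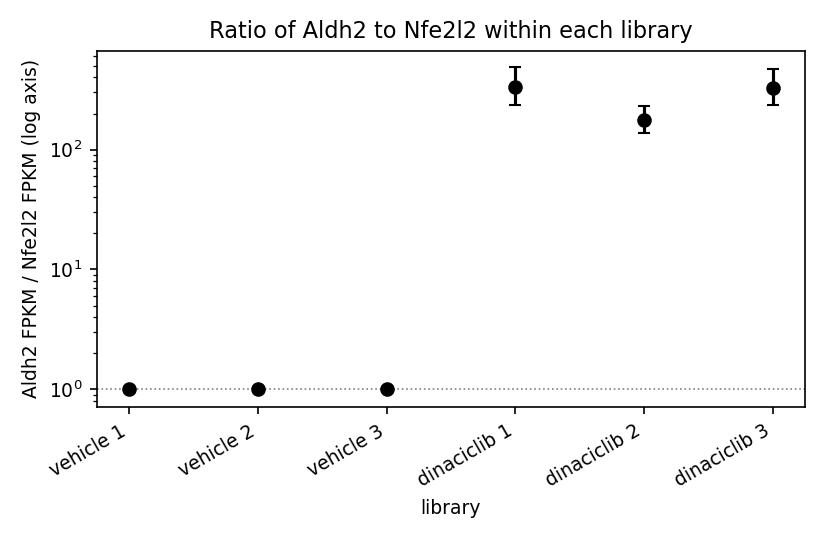
Ratio of Aldh2 to Nfe2l2 FPKM within each library (log axis), with exact binomial 95% intervals from the read counts and a dotted line at equality. The vehicle libraries sit at the line, and the dinaciclib libraries sit between 176 and 335.

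In the order of mean FPKM over the table, Aldh2 was at place 22 and Nfe2l2 at place 23 of 251 in vehicle, well above the table's median of 8.58 FPKM. Their neighbours, Sdhd, Jun, Fgfr1 and Rpn1, had ranges over the 3 vehicle libraries that overlapped theirs, so these places do not separate the genes. With dinaciclib Aldh2 stood at place 6, with 1021 ± 135 FPKM, and Nfe2l2 at place 98, with 3.85 ± 0.929 FPKM, where the table's median was 2.28. Nfe2l2 thus stood far down the order with dinaciclib, yet above the median gene of the table. The ranges of Aldh2 overlapped those of the cyclin gene Ccnd1 above it and of Rpn1 and Cox6c below it.

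Genes that started near the level of the members went both ways. Within 20% of the vehicle level of either member there were 7 other genes. Rpn1, an oligosaccharyltransferase subunit gene, stood at 874 ± 125 FPKM with dinaciclib against 44.7 ± 0.817 in vehicle. The factor gene Jun stood at 280 ± 22.8 against 45.4 ± 2.13, and the respiratory chain gene Sdhd at 129 ± 1.58 against 48.3 ± 1.98. The growth factor receptor gene Fgfr1 stood at 13.8 ± 1.11 against 44.7 ± 0.0775, the actin-binding protein gene Lasp1 at 16.6 ± 2.74 against 49.1 ± 1.39, and the splicing factor gene U2af1 at 16.3 ± 11.8 against 40.9 ± 0.951. The cohesin gene Rad21 stood at 4.05 ± 1.12 against 43.7 ± 1.04, close to Nfe2l2 in both groups. Among these 9 genes Aldh2 and Nfe2l2 were the highest and the lowest with dinaciclib; both had been chosen for their differences.

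**Figure D3:**
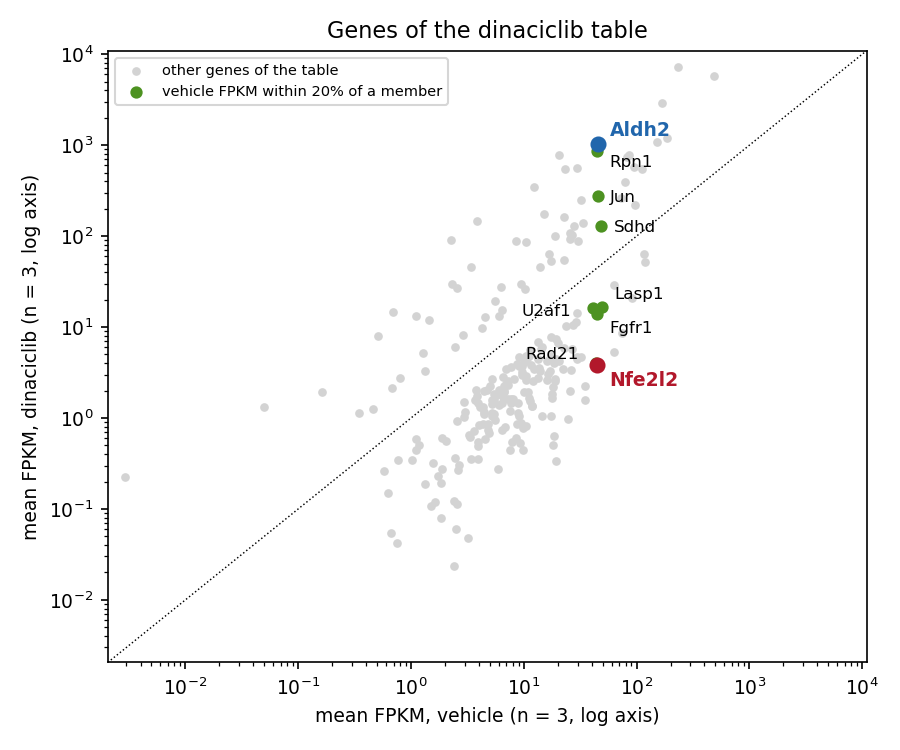
Mean FPKM in vehicle (x, log axis) against dinaciclib (y, log axis) for 243 genes of the dinaciclib table (8 with a mean of 0 in a group are not drawn), with the dotted line at equal levels. The 7 genes within 20% of a member's vehicle level, in green, spread between Aldh2 at the top and Nfe2l2 at the bottom, where the Nfe2l2 point covers most of Rad21.

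Among all 248 genes tested in the dinaciclib table, 248 were called in the edgeR quasi-likelihood fit with a Benjamini-Hochberg adjusted p below 0.05, which is 100% of those tested, 25% higher and 75% lower, while 3 of the 251 listed genes were too scarce to test. A call therefore sets no gene of this table apart, and the authors had picked the genes on these libraries. Nfe2l2 was at place 36 of the 186 lower genes by size of change, whose median log2 change was −2.39. Aldh2 was at place 7 of the 62 higher genes, whose median was 2.22.

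Dinaciclib replicate 2 had the smallest differences for both members, with the highest Nfe2l2 and the lowest Aldh2 of the group. It was the lowest of the 3 replicates in 81.5% of the 65 higher genes of the table, and the highest in 52.0% of the 171 lower genes with separate values. The part of this library in the members' spread was not tested. Without it the log2 change was −3.89 for Nfe2l2 and 4.46 for Aldh2.

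The genes whose profile over the 6 libraries was most like each member were found by the root mean square difference of log2(normalised count + 1) after subtracting each gene's vehicle mean. For Nfe2l2 they were Rad21 (0.076), the tyrosine kinase gene Abl1 (0.121), the SWI/SNF subunit gene Arid1a (0.164), the histone demethylase gene Kdm6a (0.167) and the SWI/SNF subunit gene Smarcb1 (0.218), where the median over all other genes was 1.45. Rad21 stood at 162 ± 45.5 normalised counts with dinaciclib against 1907 ± 48.8 in vehicle, and Abl1 at 181 ± 47.5 against 2139 ± 65.4.

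For Aldh2 the nearest were Ext2 (0.057), which encodes a heparan sulfate polymerase, Rpn1 (0.151), the cytokine receptor gene Crlf2 (0.212), the chromatin protein gene Hmga1b (0.218) and the perforin gene Prf1 (0.285), with a median of 4.45 over all other genes. Ext2 stood at 38054 ± 5418 normalised counts against 1755 ± 34.5. Prf1 was a scarce transcript, at 358 ± 136 against 18.4 ± 1.52, and Hmga1b may share reads with its near-copy Hmga1. With 3 libraries per group, likeness rests mostly on the size of the group difference.

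**Figure D4:**
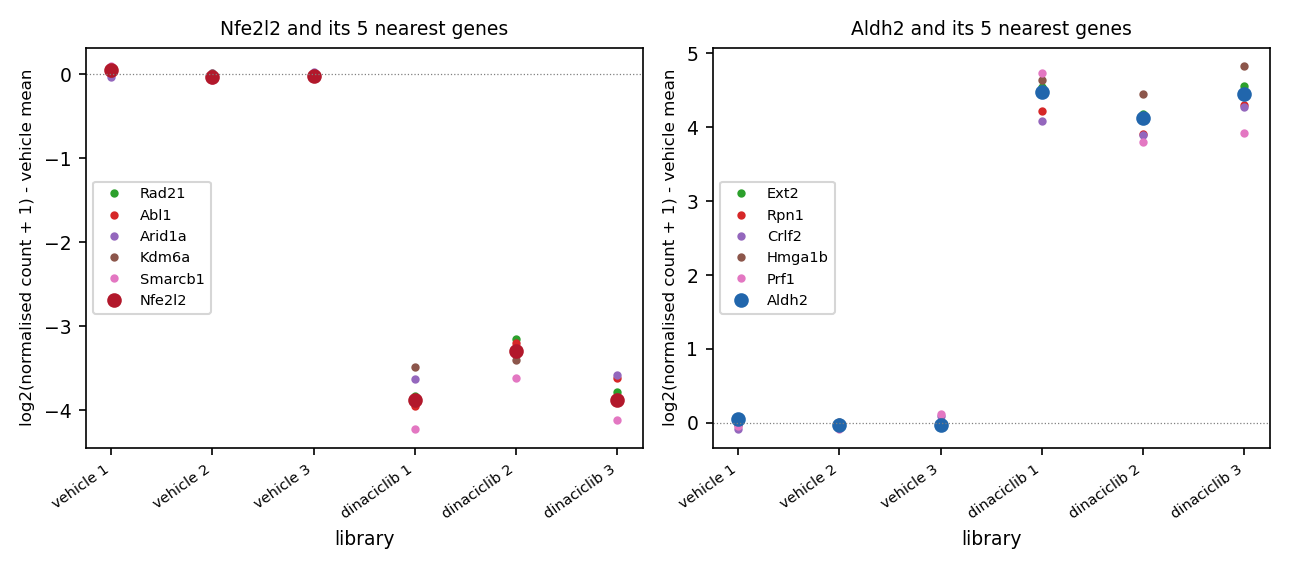
Each gene's log2(normalised count + 1) minus its vehicle mean, per library, for Nfe2l2 (left) and Aldh2 (right), large points, with the 5 nearest genes of each, small points. In dinaciclib replicate 2 the points for Nfe2l2 and Rad21 are higher, and those for Aldh2 and Ext2 lower, than in replicates 1 and 3.

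Of 256 other genes in 8 lists of oxidative and aldehyde defence and of related classes, 20 were in the dinaciclib table and tested. All 20 were called, 6 higher and 14 lower, in a table where 25% of genes were called higher and 75% lower. Their median log2 change was −1.92, beside −1.83 over all genes tested. With TMM or DESeq2 size factors over the listed genes, 9 or 8 of the 14 lower calls were kept. The table lists cancer-annotated genes only, so most genes of these pathways could not appear in it.

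Of 24 partners and regulators of NRF2, 3 were in the table and all 3 fell, beside 75% of all genes tested. KEAP1, CUL3 and the small MAF genes were not among them. Palb2, better known in DNA repair and a binder of KEAP1, stood at 31.5, 41.1 and 46.1 normalised counts in vehicle. It had 0 counts in the 3 dinaciclib libraries. Against a floor of 3 counts over the group it was at least 12.2-fold lower. With vehicle counts thinned to the dinaciclib depth Palb2 was too scarce to test. Amer1, whose protein also binds KEAP1, fell from 151 ± 3.85 to 18.2 ± 14.1, a log2 change of −2.96, or −3.85 without dinaciclib replicate 2. Ep300, an acetyltransferase gene whose product acts as a coactivator, fell from 812 ± 8.51 to 128 ± 71.4. For Ep300 the 3 dinaciclib libraries stood at 48.1, 185 and 151, well under the vehicle range of 805 to 822.

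Of 51 NRF2 target genes 1 was in the table, the receptor gene Notch1. It fell from 2857 ± 7.40 to 577 ± 30.5, a log2 change of −2.31 (SE 0.0849), where the median of the lower genes was −2.39. With DESeq2 size factors over the listed genes the log2 change of Notch1 was −0.64. Its vehicle libraries stood at 2855, 2851 and 2865 and its dinaciclib libraries at 599, 542 and 590. The classical targets of glutathione, thioredoxin and quinone metabolism were not listed, and neither was any of 42 genes for peroxide, superoxide and thiol enzymes. Their levels with dinaciclib were not analysed here.

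Other bZIP factor genes went both ways: of 48 on the list besides Nfe2l2, 5 were in the table, and 4 fell and 1 rose. Of all genes tested 75% were called lower. Jun, a part of many AP-1 dimers, rose from 1493 ± 68.5 to 8395 ± 725. The large MAF factor gene Maf fell from 1655 ± 114 to 573 ± 136, and the cyclic AMP response gene Creb1 fell from 675 ± 30.9 to 264 ± 69.4. The endoplasmic reticulum membrane factor gene Creb3l1 fell from 105 ± 9.41 to 13.4 ± 20.5. Its dinaciclib libraries stood at 37.0, 0 and 3.28, and its log2 change of −3.13 was −6.05 without dinaciclib replicate 1 and −2.45 without replicate 2. Cebpa, a differentiation factor gene, fell from 134 ± 14.0 to 16.9 ± 15.0, with a log2 change of −2.95, or −3.68 without dinaciclib replicate 2. The falls of Maf and Creb1 did not hold under every scaling. With TMM factors over the listed genes their log2 changes were −0.16 and 0.041, with adjusted p values (edgeR quasi-likelihood, Benjamini-Hochberg) of 0.409 and 0.893. With DESeq2's own size factors both changed sign, to 0.16 and 0.32, and neither passed the threshold (adjusted p 0.582 and 0.109). Creb3l1 lost its call with TMM (edgeR adjusted p 0.0521) and with DESeq2 (adjusted p 0.309).

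On the aldehyde side Aldh2 was alone in the table: none of the 20 other aldehyde dehydrogenase genes and none of 25 genes of alcohol and aldehyde reduction or oxidation was listed. Of 48 genes for mitochondrial matrix and inner membrane enzymes 3 were listed and 3 rose, in a table where 25% of genes were called higher. Cox6c, of cytochrome oxidase, rose from 759 ± 24.6 to 26437 ± 2961, more steeply than Aldh2. The succinate dehydrogenase genes Sdhc and Sdhd rose from 899 ± 19.9 to 3132 ± 144 and from 614 ± 26.0 to 1500 ± 25.8. In each of these 3 genes the lowest dinaciclib library was above the highest vehicle library. The authors had picked every listed gene for change on these libraries, so this separation does not set the 3 apart.

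Of 26 Fanconi anaemia and crosslink repair genes 9 were in the table, and 7 fell and 2 rose, with a median log2 change of −2.39. Over all genes tested 75% were called lower, so the count is near that share. The median over all genes tested was −1.83, and that of the lower genes alone −2.39. Fanca, of the core complex that marks FANCD2, rose from 115 ± 7.92 to 428 ± 153, and Fancg, of the same complex, rose too. Other core complex genes moved the opposite way: Fance fell from 149 ± 12.7 to 17.5 ± 22.4, and Fancf had 446 counts over the 3 vehicle libraries and 1 over the 3 dinaciclib libraries. After division by the size factors the Fancf ratio of vehicle to dinaciclib was 40.2 (exact binomial 95% interval 7.18 to 1592). That interval comes from summed counts and covers counting error only, not the spread between libraries. The lone count was in dinaciclib replicate 2. Without that replicate the log2 change of Fance was −4.83 in place of −2.94, and its call was lost with DESeq2 (adjusted p 0.105). The nuclease gene Ercc4 fell from 231 ± 4.40 to 38.9 ± 14.0 and Nbn, of the double-strand break sensor, from 203 ± 11.0 to 38.3 ± 7.57. Palb2, at 0 counts, is counted here as well. Blm and Brca2, a helicase and a recombination gene named here after their values were seen, made up the 7 with log2 changes of −1.27 and −1.22. Their calls did not hold in every setting. With TMM they stood at 0.11 and 0.16 and with DESeq2 at 0.31 and 0.42, in the opposite direction and with no call. With the replicate number as a block their adjusted p values (edgeR quasi-likelihood) were 0.0516 and 0.0553. Blm was also lost without vehicle replicate 1 and without vehicle replicate 3 (edgeR adjusted p 0.0532 and 0.0545).

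**Figure D5:**
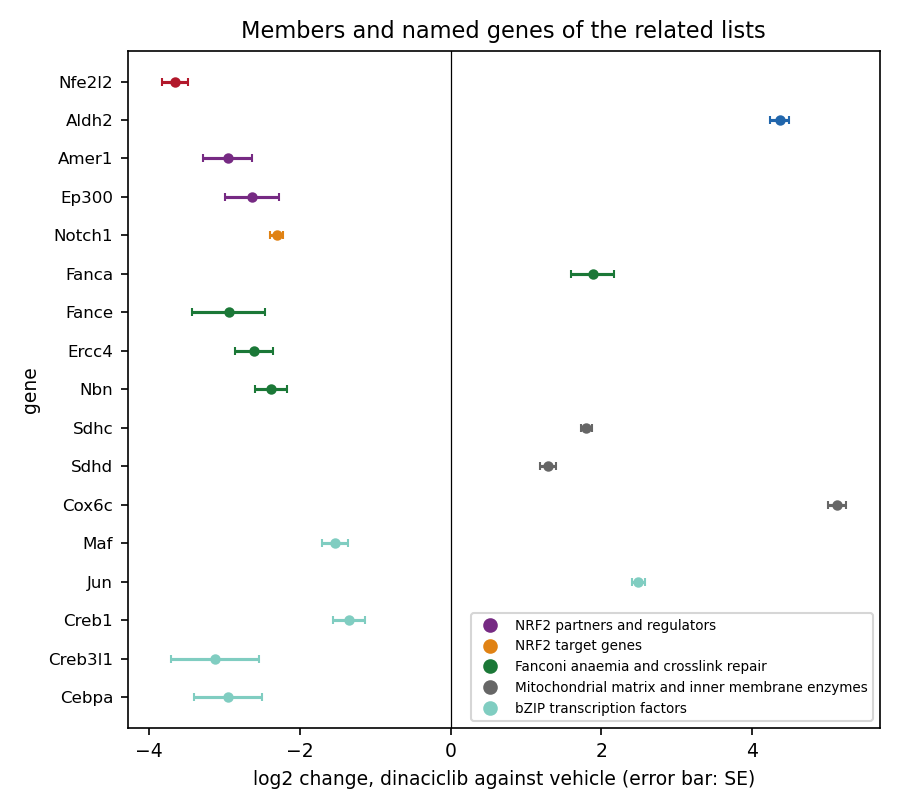
Log2 change with SE in the edgeR fit for Nfe2l2, Aldh2 and the named genes of the related lists, coloured by list; Palb2 and Fancf, with 0 and 1 counts with dinaciclib, are not drawn. Aldh2, at 4.36, and Cox6c, at 5.12, lie farthest to the right, and Nfe2l2, at −3.65, lies farthest to the left of those drawn. The fitted falls of Palb2 and Fancf were larger than that of Nfe2l2.

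Neither Nfe2l2 nor Aldh2 is listed in the authors' deposited table for MGH-CP1, and their levels with that compound were not analysed here. This comparison had no part in choosing the 2 genes, although it shares the vehicle libraries. The authors had picked its listed genes for change on these libraries, so a call there sets no gene apart. Of the same 8 lists, 7 genes were in that table and tested, and 5 rose and 2 fell (edgeR quasi-likelihood, Benjamini-Hochberg), in a table where 355 of 355 tested genes, 100%, were called. Among these, 49.3% were higher and 50.7% lower. The whole table of 471 genes, with those too scarce to test, has 270 higher and 201 lower.

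Of the 51 NRF2 targets 3 were in the MGH-CP1 table, and all 3 rose. Of all genes tested in that table, 49.3% were called higher. The cystine transporter gene Slc7a11, which feeds glutathione synthesis, stood at 786, 1233 and 683 normalised counts against 283, 333 and 403 in vehicle. Its log2 change was 1.40 (SE 0.226) in the edgeR fit. The iron exporter gene Slc40a1 stood at 3426, 3910 and 3792 against 1812, 1859 and 1831. The fatty acid receptor gene Cd36 stood at 1470, 1677 and 1539 against 616, 710 and 688. In all 3 genes the groups were apart, but the listed genes had been picked for change between these groups.

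Of the 21 aldehyde dehydrogenase genes 1 was in the MGH-CP1 table: Aldh1l2, a mitochondrial folate enzyme gene, rose from 91.2 ± 15.7 to 229 ± 24.5, a log2 change of 1.32 (SE 0.177). It was a scarce transcript, at 0.434 FPKM in vehicle, where Aldh2 stood at 45.2 FPKM. Of the mitochondrial enzyme genes, the folate gene Mthfd2 rose from 539 ± 110 to 1243 ± 172, and Ndufa1, of complex I, fell from 670 ± 59.1 to 324 ± 64.6. Of bZIP genes, Creb3l3 fell from 34.9 ± 3.72 to 15.1 ± 4.04. Normalised counts are not comparable between the tables. Of cell type markers, 3 were in the MGH-CP1 table. The endothelial gene Vwf fell from 66.9 ± 9.07 to 20.5 ± 9.20, the macrophage gene Cd68 rose from 12.2 ± 5.08 to 54.8 ± 17.6, and the myeloid gene Lyz2 fell from 187 ± 16.9 to 92.8 ± 25.7. Their part in the values above was not tested.

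The structure of the 2 genes, which played no part in choosing them, was alike in span and unlike in exon number. Nfe2l2 spans 29129 bases and Aldh2 27798, both under the table's median of 40934. The median span was 21064 bases for the 65 higher genes and 47915 for the 186 lower genes, so Nfe2l2 was shorter than the median lower gene and Aldh2 longer than the median higher gene. Nfe2l2 has fewer exons than 207 of 250 genes, and Aldh2 is near the median of 12.5. The coding part of Nfe2l2 was 48.2% G and C and that of Aldh2 59.3%, against a median of 53.5%. The 3′ untranslated region of Nfe2l2 was shorter than that of 190 of 250 genes, and that of Aldh2 longer than that of 176.

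Both loci share sequence with other annotated genes. The first exon region of Aldh2 overlaps by 130 bases the plus-strand gene Gm42879, and an intron of Nfe2l2 holds the small nuclear RNA gene Gm24996 (99 bases). The plus-strand gene E030042O20Rik (chr2:75704770-75710024) lies outside Nfe2l2 but starts within the promoter window shown above. It covers the part of that window with the antioxidant response element match. The libraries carry no strand mark, so reads from the 130 bases cannot be given to either strand. They are a small part of the 5126 bases counted for Aldh2.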

How the data were processed

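Poly(A) RNA libraries were made without a strand mark, per the labels' protocols. The submitters' processing notes name HISAT2 2.0.5, DESeq2 1.20.0, featureCounts 1.5.0-p3 and fastp; the build is not given in the sources used here. The members and lists were chosen with earlier results of these data known.

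Per the file headers, the authors deposited raw counts per gene and library, FPKM, a normalised signal (counts over 1 size factor per library, which 100% of values gave), a log2 fold change, and a p-value with its adjusted form. Genes are listed at an adjusted p below 0.05 and an absolute log2 change of at least 1. All 251 genes of the dinaciclib table are in GENCODE M21 (GRCm38), 242 with the same start and end, and 236 with a length equal to the union of exons. Library totals follow from count, FPKM and length.

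Each table was fitted whole with edgeR 4.0.16 in R 4.3.3 (quasi-likelihood test, two-sided, filterByExpr with a minimum count of 10, Benjamini-Hochberg, threshold 0.05), on the authors' size factors, because the listed genes were picked for change; SE is the absolute log2 change over the root of F. The code was tested on simulated data. Intervals are at the 95% level. Replicate pairs differed beyond sampling noise (chi-square 5.53 to 89.5 times its degrees of freedom).

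The genes named are the 2 members, listed genes found in a table (the 6 largest changes where over 6), the 5 nearest profiles per member, and listed cell type markers; some genes are not reported here and were left out of the lists. For structure, the basic coding transcript with the longest coding part was used. The promoter table gave Nfe2l2. Alternatives were total counts, TMM and DESeq2 1.42.0 scaling, no count filter, a threshold of 0.01, the replicate number as a block, thinned vehicle counts, group means, and leaving out each replicate. Transcript lengths for the ratio were added after seeing the data. Figures were drawn with matplotlib 3.10.9.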

Additional observations from a re-analysis of the deposited data

How the results depend on the processing

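Scaling moved the members' values most, since TMM and DESeq2 factors over listed genes take most of these picked genes as unchanged: they raised the median log2 change of the dinaciclib table by 1.38 and 1.67. In the MGH-CP1 table TMM moved the median by −0.29 and DESeq2, which ran on all 471 genes without the count filter, by 2.05, from −1.01 to 1.04 (1.15 with edgeR and no count filter); the lists had 5 higher and 2 lower calls in each. With TMM the log2 change was −2.27 for Nfe2l2 and 5.74 for Aldh2, and with DESeq2 it was −1.99 and 6.05. Leaving out 1 library moved the distance to the table's median between −1.87 and −1.71 for Nfe2l2 and between 6.06 and 6.49 for Aldh2. Lower calls among the listed genes numbered 9 with TMM and 8 with DESeq2 in place of 14, with 6 higher calls in each. Over the dinaciclib table, 63 genes were called higher and 108 lower with TMM (36.8% of calls higher), and 81 and 93 with DESeq2 (46.6%), in place of 62 and 186 (25%). Creb1 changed sign with TMM (0.041) and DESeq2 (0.32), and Maf with DESeq2 (0.16). Leaving out 1 library gave −3.89 to −3.54 for Nfe2l2, 4.30 to 4.46 for Aldh2 and 7.89 to 8.35 for their log2 ratio. With the replicate block the values were −3.68 and 4.35 and the lower calls 12, without Blm and Brca2. Same-numbered deviations correlated between −0.135 and 0.0195 in the dinaciclib table. Each dinaciclib library there correlated best with a vehicle library of another number. With 3 replicates per group this shows no pairing by number but cannot exclude one. Vehicle counts thinned to the dinaciclib depth gave −3.69 and 4.34. The per-length vehicle ratio of 1.01 became 0.875 with main transcript lengths. Depth limits Nfe2l2 with dinaciclib, at 32 to 62 reads per library.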
